A study of Mus musculus with 12 samples.

Results

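H2-D1 and H2-K1 are the genes of the classical class I heavy chains of the mouse major histocompatibility complex on chromosome 17, and each was represented on the array by several probe sets that did not all follow one another. These are 2 of 12393 genes with a probe set of their own. All 13 probe sets that the platform annotation assigned to H2-D1 (9 probe sets) or H2-K1 (4 probe sets) alone are described here, each on its own, out of 22690 probe sets. A further 3 probe sets named H2-D1 or H2-K1 among several genes and are kept apart. The genes were chosen by earlier results of these arrays, namely the signals of transgenic against NMRI glands, in which H2-D1 probe sets moved in opposite directions. Differences from NMRI glands are therefore given as a description, with no test.

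The study measured mammary tissue and tumor-derived cell lines of mice with 12 single-color arrays. The lines were ME-B-T/t (retransformed), ME-B (revertant) and ME-A, with 1 array each. The tissues were 3 breast cancers of female WAP-SVT/t mice (tumors 1 to 3), 3 mammary glands of female WAP-SVT/t mice on day 1 of lactation (transgenic glands 1 to 3) and 3 mammary glands of female NMRI mice at the same stage without the transgene (NMRI glands 1 to 3). The labels give the strain as NMRI for all 9 tissues, and say that WAP-SVT/t animals make the SV40 T/t antigens selectively in mammary epithelial cells. The labels do not say which mouse or tumor gave rise to a line, and do not give the ages of the animals. Beyond sample names and numbers they say nothing of separate animals, so the p-values rest on the spread among these arrays alone, which may be technical.

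A class I molecule is a heavy chain paired with beta-2 microglobulin, the product of B2m. It carries peptides, cut by the proteasome and pumped into the endoplasmic reticulum by the Tap1 and Tap2 transporter, to the surface for inspection by CD8 T cells. Nearly all cells make class I molecules, interferons raise their genes, and the heavy chain genes are among the most variable between mouse strains. An array probe designed on the sequence of 1 allele may bind another allele poorly, and the suffix x in a probe set name marks probes that may also match other transcripts. Of the 13 probe sets, 11 carried that suffix and 1426324_at and 1451934_at did not. Signal on such arrays therefore depends on both the amount and the sequence of the RNA, and levels are not compared between probe sets.

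The promoters of both genes are shown because their probe sets are read below beside interferon response genes. The stretches are from RefSeq (GRCm38.p6), read 5′ to 3′ on the strand of the gene. Capitals mark GGGATTCCC, the NF-kB site of enhancer A, and then TTTCACTTC, the core of the interferon response element. The H2-D1 stretch is chr17:35262861-35262980 on the plus strand, 233 to 114 bases before the gene's start. The H2-K1 stretch is chr17:34000401-34000520 on the minus strand, 173 to 54 bases before 1 of 2 listed starts. Unlike the H2-D1 stretch, it lies inside the listed span of its gene, 33996012 to 34000619.
H2-D1: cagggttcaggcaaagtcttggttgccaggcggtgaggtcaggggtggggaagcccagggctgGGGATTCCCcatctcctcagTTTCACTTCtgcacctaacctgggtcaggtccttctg
H2-K1: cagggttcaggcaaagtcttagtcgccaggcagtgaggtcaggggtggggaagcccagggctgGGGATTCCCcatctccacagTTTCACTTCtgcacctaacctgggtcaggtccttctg
The 2 stretches had 116 of 120 bases in common. In the 250 bases before the start, on both strands, the first motif was in 0.311% and the second in 0.429% of 27025 promoters. Both were in 4 promoters, those of H2-D1, H2-K1, H2-Q6 and H2-Q7. The motifs do not overlap, and a match of letters describes the reference sequence only, not the alleles of these mice or any binding.

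The arrays differed in RNA integrity and tissue mixture. For Gapdh, the control signal at the 3-prime end over that at the 5-prime end was under 1 in the lines (0.753 to 0.949) and in tumors 2 and 3 (0.982 and 0.969), and reached 5.63 in tumor 1. Transgenic glands had ratios up to 22.5 and NMRI glands up to 40.3. Tumor 1 stood apart from the other 2 tumors in that ratio, in the summed signal of skeletal muscle markers (14127, against 590.0 and 393) and in that of adipocyte markers (9155, against 961 and 1259). The defining milk gene Wap was low in the lines and tumors (90.3 to 119) and had 1603 to 6368 in transgenic and 14803 to 16614 in NMRI glands. Among epithelial genes, Epcam had 5308 in ME-A but only 13.2 in ME-B-T/t and 9.1 in ME-B. In bulk tissue, fewer cells of a type and less RNA per cell cannot be told apart.

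Of the 13 probe sets, 5 were low in transgenic glands and high in NMRI glands with no overlap between these groups, and 4 the reverse. In all, 14% of the 12673 probe sets above the filter on dim signals were lower without overlap in that comparison, and 15.8% were higher. Since this comparison chose the genes, nothing is read from those shares. The remaining 4 probe sets were 1425336_x_at and 1450534_x_at of H2-K1, which had overlapping gland signals, and 1450170_x_at and 1451934_at of H2-D1, which did not pass the filter.

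**Figure D1:**
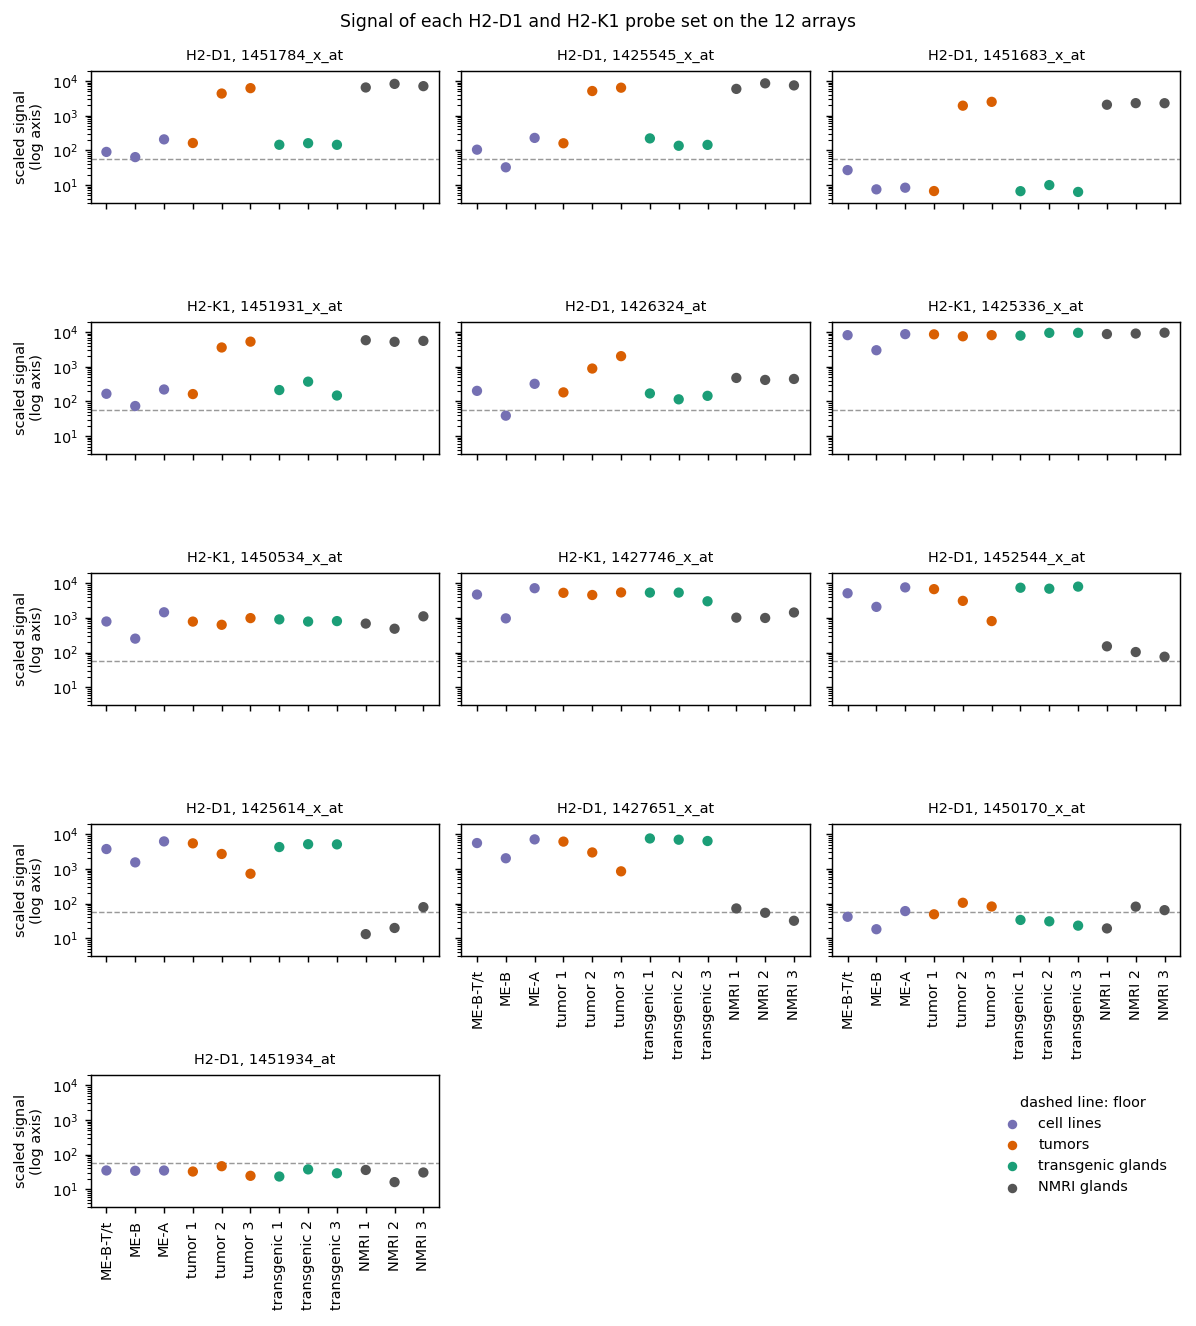
Scaled signal (log axis) of each of the 13 probe sets on every array, with cell lines, tumors, transgenic glands and NMRI glands from left to right and the floor of 57.5 as a dashed line. In the panels of 1425545_x_at, 1451683_x_at, 1451784_x_at and 1451931_x_at, tumors 2 and 3 sit with the NMRI glands, and tumor 1 sits with the transgenic glands and the lines.

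The first set, high in NMRI glands, held 1425545_x_at, 1451683_x_at, 1451784_x_at and 1426324_at of H2-D1 and 1451931_x_at of H2-K1. Probe set 1425545_x_at had signals of 105, 32.4 and 229 in ME-B-T/t, ME-B and ME-A. In tumors 1 to 3 the signals were 160.2, 5157 and 6437. The transgenic glands, also numbered 1 to 3, had 221, 136 and 144, against 5943, 8598 and 7492 in NMRI glands. Every line, tumor 1 and every transgenic gland were thus low, and tumors 2 and 3 and every NMRI gland were high. The mean was 167 ± 47.3 in transgenic and 7344 ± 1334 in NMRI glands (SD, n = 3 each), 44.6-fold lower in transgenic glands.

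The other probe sets of the first set divided the arrays in the same way. Probe set 1451784_x_at had 90.2, 63.8 and 208 in ME-B-T/t, ME-B and ME-A, 163, 4365 and 6244 in tumors 1 to 3, 145, 161 and 144 in transgenic glands and 6529, 8288 and 7131 in NMRI glands. It was 48.6-fold lower in transgenic than in NMRI glands. Probe set 1451683_x_at was at or under the floor in all 3 lines, in tumor 1 and in all 3 transgenic glands. It had 1947 and 2513 in tumors 2 and 3 and 2073, 2305 and 2297 in NMRI glands, which made it at least 38.7-fold lower in transgenic glands. The floor is the signal of 57.5, under which values were set to it.

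The H2-K1 probe set 1451931_x_at followed these H2-D1 probe sets. Its signals were 166, 73.7 and 221 in ME-B-T/t, ME-B and ME-A, 163, 3607 and 5315 in tumors 1 to 3, 213, 372 and 148 in transgenic glands and 5851, 5248 and 5593 in NMRI glands (24.5-fold lower in transgenic glands). Probe set 1426324_at, without the suffix x, had smaller differences. It had 202, 38.8 and 322 in ME-B-T/t, ME-B and ME-A, 182, 889.9 and 2026 in tumors 1 to 3, 169.9, 115 and 145 in transgenic glands and 477, 417 and 445 in NMRI glands. It was 3.15-fold lower in transgenic than in NMRI glands, and tumors 2 and 3 were above all NMRI glands.

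The second set, low in NMRI glands, held 1425614_x_at, 1427651_x_at and 1452544_x_at of H2-D1, with a smaller difference in 1427746_x_at of H2-K1. Probe set 1427651_x_at had 5587, 2032 and 7126 in ME-B-T/t, ME-B and ME-A and 6146, 2991 and 853 in tumors 1 to 3. It had 7576, 6974 and 6398 in transgenic glands and 72.4, 54.2 and 31.9 in NMRI glands. The means were 6983 ± 589 in transgenic and 52.8 ± 20.3 in NMRI glands (SD, n = 3 each). It was 112-fold higher in transgenic glands, a value that depends on the floor because 2 of the 3 NMRI glands lay under it.

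Probe set 1425614_x_at had 3752, 1545 and 6229 in ME-B-T/t, ME-B and ME-A, 5473, 2702 and 726 in tumors 1 to 3, 4280.0, 5174 and 5116 in transgenic glands and 13.1, 19.8 and 78.9 in NMRI glands. It was 75.8-fold higher in transgenic than in NMRI glands, again with 2 NMRI glands under the floor. Probe set 1452544_x_at had 5132, 2075 and 7571 in ME-B-T/t, ME-B and ME-A, 6744, 3093 and 807 in tumors 1 to 3, 7407, 6948 and 7981 in transgenic glands and 151, 103 and 75.6 in NMRI glands, 70.4-fold higher in transgenic glands. In all 3 of these probe sets tumor 1 was the highest tumor, tumor 3 the lowest, and every tumor lay above every NMRI gland. Tumor 3 thus had the highest tumor signal in the 5 probe sets of the first set and the lowest in these 3 H2-D1 probe sets, while tumor 2 had signals of at least 2702 in each of 1425545_x_at, 1451784_x_at, 1451931_x_at, 1425614_x_at, 1427651_x_at and 1452544_x_at.

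The 4 H2-K1 probe sets had 3 different patterns. Beside 1451931_x_at, probe set 1427746_x_at had 4706, 967 and 7176 in ME-B-T/t, ME-B and ME-A, 5277, 4569 and 5421 in tumors 1 to 3, 5358, 5358 and 3011 in transgenic glands and 1013, 993 and 1430 in NMRI glands. It was 3.92-fold higher in transgenic than in NMRI glands, and the tumors differed little among themselves. Probe set 1425336_x_at had 8184, 3007 and 8759 in ME-B-T/t, ME-B and ME-A and between 7586 and 9634 in all 9 tissues. Probe set 1450534_x_at had 785, 251 and 1448 in ME-B-T/t, ME-B and ME-A and 485 to 1107 in the tissues. In all 4 H2-K1 probe sets the signal of ME-B was the lowest of all 12 arrays. In 1427746_x_at the margin was small, with 967 in ME-B against 993 in the lowest NMRI gland. The signal of ME-B was also the lowest of all arrays in some H2-D1 probe sets.

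Of the dim H2-D1 probe sets, 1450170_x_at was above the floor on 5 arrays, with signals from 18.2 in ME-B to 105 in tumor 2, and 1451934_at was under the floor on all 12. Among the probe sets that name several genes, 1424948_x_at (H2-K1 or H2-D1) had 3798, 561 and 6279 in ME-B-T/t, ME-B and ME-A, 5123, 3649 and 4723 in tumors 1 to 3, 4793, 4895 and 4422 in transgenic glands and 2951, 1656 and 3502 in NMRI glands. Probe set 1451593_at (H2-Q5 or H2-K1) divided the arrays like the first set, with 292, 138 and 201 in ME-B-T/t, ME-B and ME-A, 149.7, 630 and 1119 in tumors 1 to 3, 115, 180.2 and 129 in transgenic glands and 638, 756 and 656 in NMRI glands. The third, 1422348_at, was under the floor on all arrays.

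Pairs of probe sets were compared by the mean absolute difference of their log2 signals over the 12 arrays, after each was centred on its own mean. Within the first set, 1425545_x_at and 1451784_x_at differed by 0.16 and 1451683_x_at and 1451784_x_at by 0.34. The H2-K1 probe set 1451931_x_at differed by 0.39 to 0.41 from these H2-D1 probe sets, but by 2.26 from 1425336_x_at and 2.36 from 1450534_x_at of its own gene. Within the second set, 1425614_x_at and 1427651_x_at differed by 0.22, and each differed by 0.29 from 1452544_x_at. Probe set 1427746_x_at of H2-K1 lay farther from these 3 (1.63 to 1.85) than from 1425336_x_at (0.89) and 1450534_x_at (0.71) of its own gene. Likewise, 1426324_at of H2-D1 differed by 1.36 to 1.66 from the other 4 probe sets of the first set and by 0.97 and 1.06 from those H2-K1 probe sets. Profiles were centred but not scaled, so a probe set with small differences lies far from those with large ones, whatever its pattern. The distances therefore do not place 1426324_at or 1427746_x_at outside its set, and 1426324_at divided the arrays as the first set did. The distances are descriptions, since the points share the same 12 arrays.

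**Figure D2:**
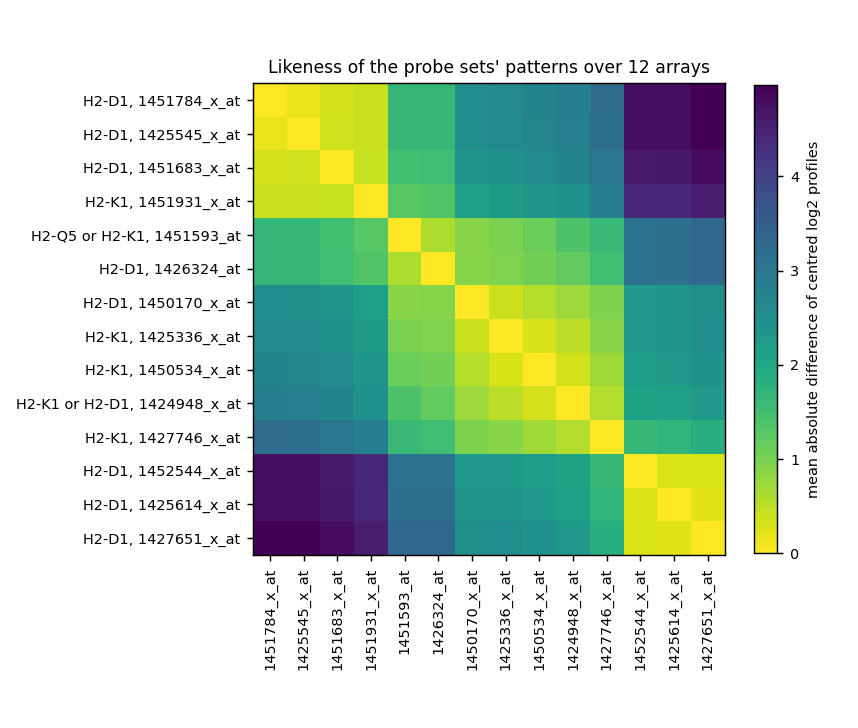
Mean absolute difference (color) of the centred log2 signals over 12 arrays between pairs of probe sets, with the H2-D1 or H2-K1 probe sets above the floor on at least 3 arrays on both axes. Light blocks mark 1425545_x_at, 1451683_x_at, 1451784_x_at and 1451931_x_at, and 1425614_x_at, 1427651_x_at and 1452544_x_at, and the darkest cells lie between these 2 blocks.

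Tumors were next compared with transgenic glands, which carry the same transgene. The 5 probe sets of the first set had log2 differences between 2.29 and 3.51, and the 3 H2-D1 probe sets of the second set between -1.54 and -1.13, but none passed the test. Of 11 probe sets tested, 0 were called by limma at an adjusted p under 0.05, while 2.35% of 12673 probe sets were called. At an unadjusted limma p under 0.05 there were 7 of the 11. The share of all probe sets at that unadjusted level was not counted, here or in later comparisons, so nothing is read from such counts. The median log2 difference of the 11 was 0.20, against 0.02 over all probe sets tested. This comparison shares the transgenic glands with the one that chose the genes.

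The smallest limma adjusted p was 0.121, for 1426324_at, with a log2 difference of 2.29 ± 0.67 (standard error). Probe set 1451784_x_at had 3.45 ± 1.05 (limma adjusted p = 0.140) and 1425545_x_at 3.42 ± 1.09 (limma adjusted p = 0.159). The value of 1451683_x_at, 3.51 (limma adjusted p = 0.153), depends on the floor, at which all transgenic glands and tumor 1 lay. It was 3.07 and 4.12 under other floors and 4.36 with no floor. It passed the filter on dim signals only through tumors 2 and 3 and the NMRI glands, where it was high. For 1452544_x_at and 1427651_x_at of the second set the values were -1.54 ± 0.61 and -1.48 ± 0.55 (limma adjusted p = 0.263 and 0.231). The H2-K1 probe sets 1425336_x_at, 1427746_x_at and 1450534_x_at had log2 differences between -0.14 and 0.20. After quantile normalization that of 1425336_x_at was 0.32, and without transgenic gland 3 that of 1427746_x_at was -0.078.

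Leaving out tumor 1 changed the calls. Without that array, 6 of the 11 were called by limma, 1425545_x_at, 1426324_at, 1451683_x_at, 1451784_x_at and 1451931_x_at higher in tumors and 1427651_x_at lower. Across the fits with 1 array left out, this one among them, 54 to 271 of all probe sets were called. With every array kept, 298 of 12673 were called. The share of all probe sets called in the fit without tumor 1 is not given here, so nothing is read from the count of 6. In each of the 6, tumor 1 was the tumor nearest to the transgenic glands, so leaving it out widened the difference by construction. The call of 1451683_x_at also depends on the floor. Their log2 differences were then 5.14, 3.25, at least 5.27, 5.12, 4.27 and -2.12, in that order. Without tumor 3 none was called, and the differences were smaller: 2.48 for 1425545_x_at, 1.51 for 1426324_at, 2.54, again dependent on the floor, for 1451683_x_at, 2.49 for 1451784_x_at and 1.75 for 1451931_x_at. Those of 1425614_x_at, 1427651_x_at and 1452544_x_at were then -0.33, -0.70 and -0.70. Tumor 1 was also the tumor with the high Gapdh ratio and the high muscle and adipocyte signals given above, and the part of these in the result was not tested. Pan-leukocyte markers had summed signals of 4160.0, 3917 and 2825 in tumors 1 to 3, 2143, 6911 and 3070.0 in transgenic glands and 2338, 2627 and 3258 in NMRI glands. In tumors 1 to 3 the sums were 14685, 16196 and 7142 for class II genes and 2068, 1921 and 1027 for B and plasma cell markers. For T and NK cell markers they were 2243, 1972 and 1764, and for macrophage and myeloid markers 20878, 22886 and 24288. The part of leukocytes in the class I signals was not tested.

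The comparison with NMRI glands takes no test here. Of the 11 probe sets above the filter on dim signals, 4 were higher in tumors without overlap and 2 were lower. Among all 12673 probe sets above that filter, 22.1% were higher and 20.6% lower. Those higher were 1427651_x_at (40.3-fold), 1425614_x_at (34.5-fold), 1452544_x_at (24.3-fold) and 1427746_x_at (4.50-fold). For 1427651_x_at, 1425614_x_at and 1452544_x_at the log2 differences were 5.33, 5.11 and 4.60, against 4.69, 4.45 and 3.90 without tumor 1 and 6.11, 5.91 and 5.44 without tumor 3. Those lower were 1451784_x_at (4.43-fold, a log2 difference of -2.15 that was -0.48 without tumor 1 and -3.11 without tumor 3) and 1425336_x_at (1.13-fold, and higher by 0.55 on the log2 scale after quantile normalization). In 1425545_x_at, 1451683_x_at and 1451931_x_at tumor 1 lay below every NMRI gland and tumor 3 above at least 1 of them, so the groups overlapped.

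**Figure D3:**
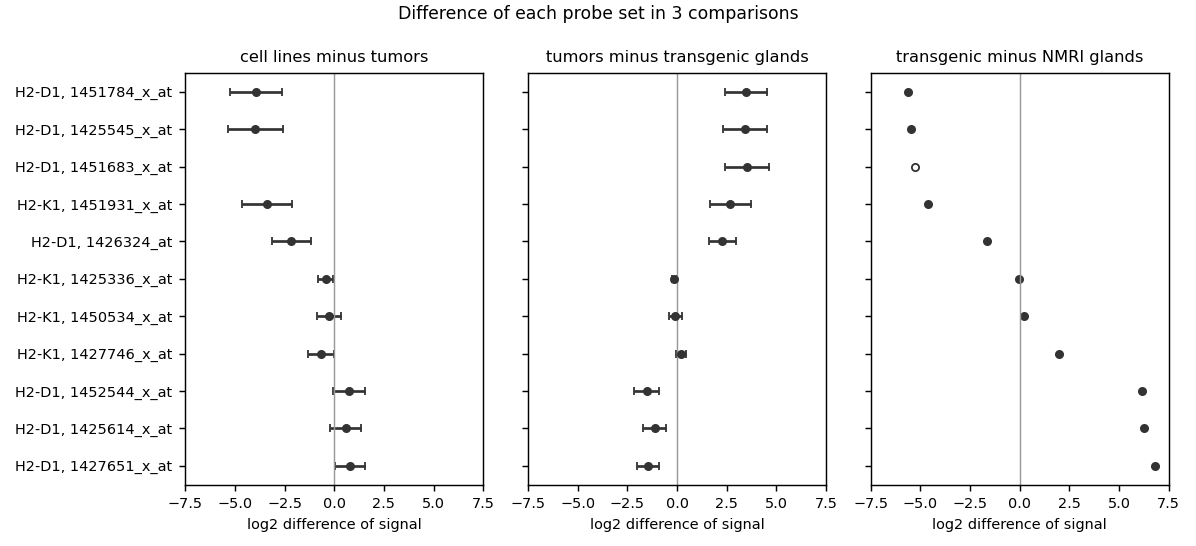
Log2 difference of signal for 11 probe sets, with cell lines minus tumors, tumors minus transgenic glands and transgenic minus NMRI glands from left to right. The 5 probe sets at the top lie below 0 at right and above 0 in the middle, where bars are limma standard errors as at left, the open point is a lower bound on the size, the middle value of 1451683_x_at depends on the floor, and 1451683_x_at is missing at left because it did not pass the filter on dim signals.

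In the class I pathway outside these genes, 1 gene was called between tumors and transgenic glands. Of 31 tested partners of class I presentation (B2m, peptide transporters, immunoproteasome, chaperones and regulators), 0 were called by limma and 1 had an unadjusted p under 0.05. Of 7 other class I genes, H2-Q10, which encodes a secreted class I protein, was 3.68-fold lower in tumors (limma adjusted p = 0.0436). Its signals were 152, 59.5 and 64.3 in tumors and 230, 261 and 481 in transgenic glands, and it was under the floor in all NMRI glands and all lines. H2-Q10 passed the filter on dim signals only through the transgenic glands, where it was high, and tumor 1. In the other tumors it was near the floor of 57.5 and under the pooled median of 139.9. Among 44 tested genes between and around H2-K1 and H2-D1 on chromosome 17, 0 were called and 5 had an unadjusted p under 0.05. Of interferon response genes, 0 of 31 were called and 1 had an unadjusted p under 0.05, and of class II genes, 0 of 7 were called and 0 had one.

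Markers of other cells gave 0 calls among 7 pan-leukocyte, 18 macrophage and myeloid, 8 T and NK cell and 12 skeletal muscle genes in tumors against transgenic glands by limma, with 0, 3, 3 and 0 at an unadjusted p under 0.05. Lower in tumors were 1 of 6 B and plasma cell, 1 of 12 endothelial, 4 of 10 lactating and luminal epithelial and 5 of 6 adipocyte markers. The part of these mixtures in the class I signals was not tested.

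The cell lines were compared with the tumors as a class, although they are 3 different lines. Of 10 probe sets tested, 0 were called by limma at an adjusted p under 0.05, while 2.51% of 11940 probe sets were called. At an unadjusted limma p under 0.05 there were 3 of the 10, and the share of all probe sets at that level was not counted. The first set was low in every line, and the limma log2 differences were -3.95 ± 1.32 for 1451784_x_at (adjusted p = 0.20), -3.97 ± 1.37 for 1425545_x_at (adjusted p = 0.212) and -3.39 ± 1.25 for 1451931_x_at (adjusted p = 0.236). Without tumor 1 they were -5.62, -5.69 and -4.97 (limma adjusted p = 0.0624 each), and without tumor 3 they were -2.99, -3.03 and -2.46, in the same order. When all 12 arrays were fitted together, 1451784_x_at was called (limma adjusted p = 0.0471). In the fit of lines and tumors, 1425545_x_at and 1451784_x_at passed the filter on dim signals only through the tumors, where they were high, and ME-A. Both were under the pooled median of 139.9 in ME-B-T/t and ME-B. The median log2 difference over the 10 was -0.55, against 0.03 over all probe sets tested. For 1425614_x_at, 1427651_x_at and 1452544_x_at the log2 differences were 0.58 ± 0.78, 0.79 ± 0.76 and 0.75 ± 0.79. Without tumor 3 they were -0.22, 0.012 and -0.080, and without tumor 1 they were 1.24, 1.44 and 1.45.

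These line signals were measured where leukocyte RNA was low. In each line 7 of 10 pan-leukocyte markers were at the floor, with summed signals of 499, 417 and 385 in ME-B-T/t, ME-B and ME-A, whereas 1 of 10 was at the floor in each tissue. Of 7 pan-leukocyte and 17 macrophage markers tested, 6 and 14 were lower in lines than in tumors by limma. Of 7 class II genes, 4 were lower, Ctss (at least 67.8-fold), H2-Aa (34.9-fold, a value that depends on the floor because 2 of the 3 lines lay under it), Cd74 (18.4-fold) and H2-Ab1 (at least 16.3-fold). In the same arrays 1452544_x_at of H2-D1 had signals between 2075 and 7571. No partner of class I presentation was called among 30 (5 at an unadjusted p under 0.05), none of 7 other class I genes (1 at that level) and none of 30 interferon response genes (1 at that level). Among 41 genes around H2-K1 and H2-D1, the myeloid genes Aif1 and Lst1 were lower. Lower too were 3 of 9 endothelial and 1 of 2 T and NK cell markers, while 0 of 4 B and plasma cell, 0 of 7 epithelial, 0 of 1 muscle and 0 of 2 adipocyte markers were called, with 1, 4, 0 and 1 at an unadjusted p under 0.05.

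Among the lines, which have no replicates and therefore no test, the revertant ME-B had the lowest signal in each of the 10 probe sets compared. It lay at least 2-fold below both ME-B-T/t and ME-A in 8 of them, whereas 2.34% of 13293 probe sets did. The threshold of 2-fold was set after the values were seen. How many of all probe sets had their lowest line signal in ME-B was not counted. Nothing is therefore read from ME-B being lowest in all 10. For H2-K1, 1427746_x_at had 4.87-fold and 7.42-fold higher signal in ME-B-T/t and ME-A than in ME-B, 1450534_x_at 3.12-fold and 5.76-fold, and 1425336_x_at 2.72-fold and 2.91-fold. For H2-D1, the folds over ME-B in ME-B-T/t and ME-A were 2.75 and 3.51 for 1427651_x_at, 2.47 and 3.65 for 1452544_x_at and 2.43 and 4.03 for 1425614_x_at. In the first set the folds were at least 3.51 and 5.61 for 1426324_at of H2-D1, where ME-B was under the floor. They were 2.26 and 3.00 for 1451931_x_at of H2-K1, where ME-B (73.7) was near the floor. The 2 probe sets that missed the 2-fold threshold, 1425545_x_at and 1451784_x_at, had ME-B at or near the floor. In both, only ME-A exceeded the pooled median of 139.9 used by the filter on dim signals. In 1426324_at and 1451931_x_at only ME-B-T/t and ME-A exceeded it. The entry of these probe sets thus rested on lines other than ME-B.

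**Figure D4:**
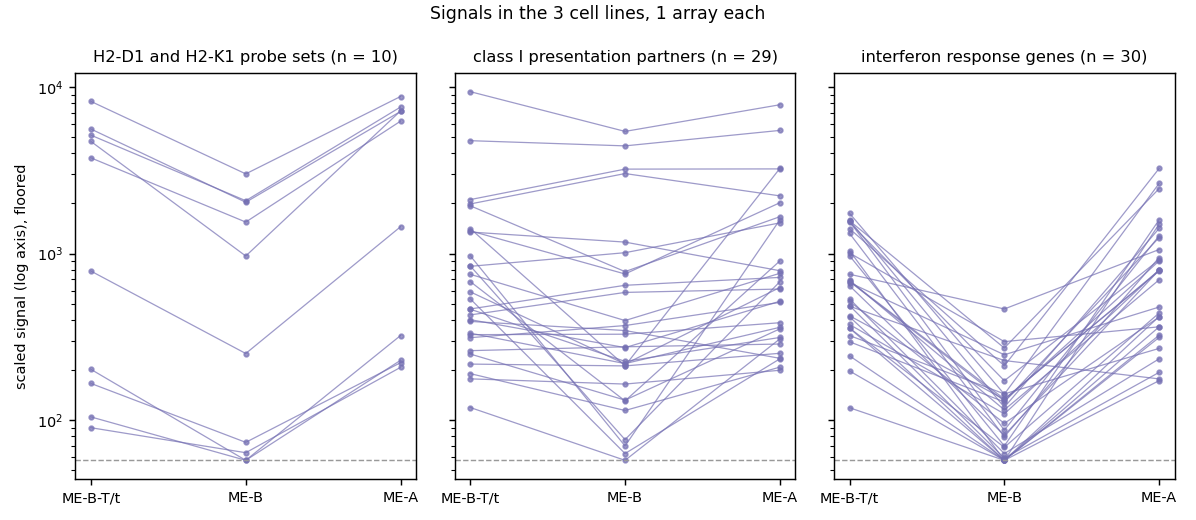
Scaled signal (log axis, values under the floor set to the dashed line) in ME-B-T/t, ME-B and ME-A, 1 array each, for the H2-D1 and H2-K1 probe sets, the partners of class I presentation and interferon response genes. Each line joins the values of 1 probe set, and in the left panel all 10 have their lowest point in ME-B.

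Genes known to be raised by interferon were also lower in ME-B. The summed signal of the interferon response list was 22798 in ME-B-T/t, 3929 in ME-B and 27143 in ME-A. Of 30 interferon response genes compared, 25 lay at least 2-fold below both other lines in ME-B and 0 above both. Among all 13293 probe sets compared, 2.34% lay that far below both. Among 29 partners of class I presentation, 8 did so and 0 lay above both. They included, named after their values were seen, the immunoproteasome subunit genes Psmb8 (1412 in ME-B-T/t, 212 in ME-B and 3240.3 in ME-A) and Psmb9 (970.2, 70.1 and 1593) and the peptide transporter gene Tap1 (679, 131 and 903). B2m, the light chain, had 9364 in ME-B-T/t, 5408 in ME-B and 7814 in ME-A, within 2-fold. A gene was compared if any line exceeded the pooled median of 139.9. Genes under it in ME-B, such as Psmb9 and Tap1, thus entered only through lines where they were high. The same held for interferon response genes such as Usp18 (87.2 in ME-B) and Ifit1 (79.6), and Oasl2 (27.4) was under the floor there. These counts are therefore descriptions.

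In the other lists the counts were smaller. Of 39 genes around H2-K1 and H2-D1, 2 lay at least 2-fold below both other lines, Ddah2 and the peptide loading gene Tapbp, and of 7 other class I genes 2 did, Hfe and H2-M10.1. None of 3 class II genes did. Psmb8, Psmb9, Stat2 and Tap1 are in both the interferon and the partner lists, so these counts are not independent.

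The genes with the most similar patterns over the 12 arrays differed between the sets, by the same distance as above among 8185 genes outside H2-D1 and H2-K1. Nearest to 1427746_x_at of H2-K1 were the antiviral genes Oas1a (0.34) and Ddx60 (0.35), and nearest to 1424948_x_at was Psmb8 (0.26). Probe set 1425336_x_at was nearest to Tmub2 (0.14) and Grn (0.18), the progranulin gene, and 1450534_x_at to Mitd1 (0.26) and Fuca2 (0.27). The probe sets with the largest differences between glands had more distant neighbors. Because profiles were not scaled, large differences by themselves give large distances, so this does not measure how unusual a pattern is. The nearest was Col9a1 at 1.38 for 1451784_x_at, 1.40 for 1425545_x_at and 1.44 for 1451683_x_at, Gjb6 at 1.25 for 1451931_x_at, Ube2c at 0.96 for 1425614_x_at, and Mki67 at 1.06 for 1427651_x_at and 0.88 for 1452544_x_at.

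Sytl1 on chromosome 4, whose product binds Rab27 in vesicle transport, was nearest to 1451593_at (0.50). It was under the floor in all lines, in tumor 1 (6.1) and in all transgenic glands (10.6, 15.7 and 27.6), and had 191 and 152 in tumors 2 and 3 and 111, 207 and 104 in NMRI glands. Dcpp3 on chromosome 17, a gene of salivary secretion, was second to both 1451593_at (0.52) and 1426324_at (0.64). It had 80.3, 427 and 363 in tumors 1 to 3, 80.0, 101 and 114 in transgenic glands and 208, 199 and 155 in NMRI glands, with 167, 107 and 92.7 in ME-B-T/t, ME-B and ME-A. Its signal in ME-B-T/t thus lay above that of NMRI gland 3. For 1426324_at the nearest was Nipal2 (0.63), which had 236, 137 and 944.5 in ME-B-T/t, ME-B and ME-A, 444, 1112 and 944 in tumors 1 to 3, 465, 452 and 419 in transgenic glands and 1000.1, 1445 and 1272 in NMRI glands, so that ME-A was not low there. Of these 3 genes, Sytl1 alone had every line, tumor 1 and every transgenic gland below tumors 2 and 3 and every NMRI gland.

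**Figure D5:**
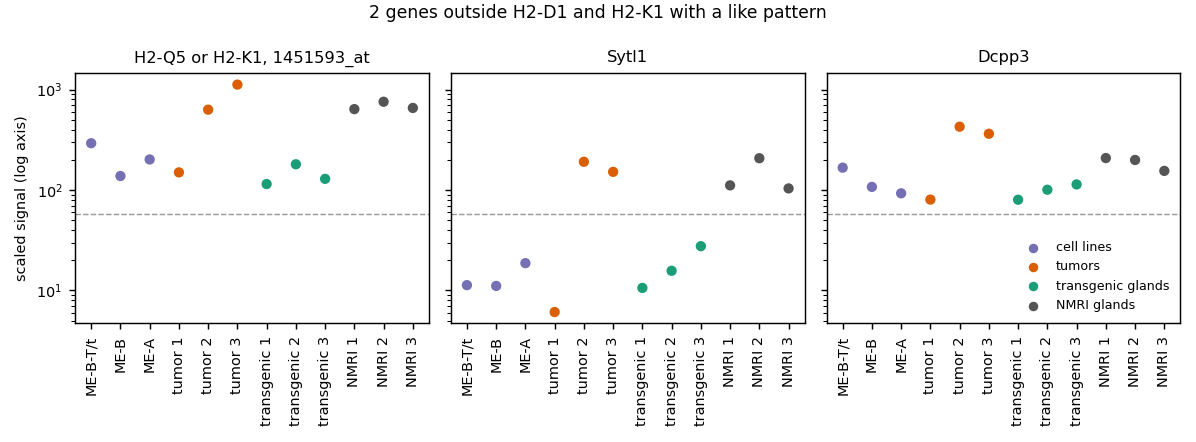
Scaled signal (log axis) on the 12 arrays, in the order cell lines, tumors, transgenic glands and NMRI glands, for 1451593_at and for Sytl1 and Dcpp3, with the floor as a dashed line. In each panel tumors 2 and 3 and the NMRI glands lie above tumor 1 and the transgenic glands.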

How the data were processed

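RNA was labelled as biotinylated cRNA, per the labels' protocols. The authors made the deposited values, linear intensity per probe set, with MAS5, per the submitters' processing notes. Its version and scaling target: not given in the sources used here. Probe sets were joined to genes through the platform's annotation and RefSeq (GRCm38.p6): 20380 named 1 gene, 691 several and 1555 none, and 64 controls were left out. Arrays were scaled to a common trimmed mean (2% trimmed at each end). The pooled 30th percentile (57.5) served as floor for lower values before log2 was taken, and 67.7% to 72.6% of probe sets per array exceeded it. A probe set was tested with at least 3 arrays of the fit above the pooled median of 139.9.

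Tests used limma 3.58.1 in R 4.3.3 (lmFit, eBayes with an intensity trend, two-sided, Benjamini-Hochberg over all probe sets tested, adjusted p under 0.05), with 6 residual degrees of freedom for the 9 tissue arrays in 3 groups and 4 for lines against tumors. The method was tested on simulated data. In gene lists, each gene was represented by its brightest probe set (mean log2 over the arrays of the fit), and up to 4 genes with the smallest p per list were eligible to be named. For likeness, the 2 nearest genes per probe set were eligible. The small number of arrays limits precision. The members and lists were chosen with earlier results of these data known. Alternatives covered scaling, floor, filter, variance model, arrays in the fit, the replicate block and leaving out each array. Figures used matplotlib 3.10.9 in Python 3.11.15.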

Additional observations from a re-analysis of the deposited data

How the results depend on the processing

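Of 632 recomputed differences over 43 probe set and comparison pairs, 614 kept their direction and 18 did not. No H2-D1 or H2-K1 probe set was called in tumors against transgenic glands under any scaling, floor, filter or variance setting. The count ranged from 0 to 6 when 1 array was left out, with 6 without tumor 1. In cell lines against tumors it was 1 with all 12 arrays fitted together and 0 otherwise, also when 1 array was left out. The number of all probe sets called, 298 and 300 in these comparisons, was 73 and 146 with no filter on dim probe sets, 162 in the first with only its 6 arrays and 666 in the second with all 12. Leaving out 1 array gave 54 to 271 and 0 to 1041.

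For 1425336_x_at, transgenic against NMRI glands had 0.0699 with no scaling and 0.23 after quantile normalization, which also gave 0.32 for tumors against transgenic and 0.55 for tumors against NMRI glands. With 1 array left out, transgenic against NMRI glands ranged from -0.0764 to 0.0587 for 1425336_x_at and from -0.0691 to 0.53 for 1450534_x_at. Tumors against NMRI glands ranged from -0.15 to 1.59 for 1426324_at and from -0.15 to 0.45 for 1450534_x_at. Tumors against transgenic glands ranged from -0.24 to 0.0793 for 1450534_x_at and from -0.0783 to 0.34 for 1427746_x_at. Lines against tumors ranged from -0.71 to 0.0598 for 1425336_x_at, from -1.25 to 0.20 for 1427746_x_at, from -0.82 to 0.44 for 1450534_x_at, from -0.22 to 1.24 for 1425614_x_at and from -0.0801 to 1.45 for 1452544_x_at. Without the glands numbered 3, which have the largest Gapdh ratios of each group and were left out as a choice made after seeing the data, 1427746_x_at had -0.0783 in tumors against transgenic glands. The cause was not tested.

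With the replicate number as a block (replicate block), 0 H2-D1 or H2-K1 probe sets and 355 of all probe sets were called in tumors against transgenic glands. Same-numbered tumors and transgenic glands had correlations of deviations of -0.13, 0.36 and -0.11, and 1 of 3 tumors correlated best with its own number. Whether these arrays share more than a number cannot be told from 3 such values. Same-numbered transgenic and NMRI glands had correlations of 0.25, 0.435 and 0.445, each highest with its own number, so these numbers go together across the gland groups, as do the Gapdh ratios (10.7, 2.5 and 22.5 in transgenic, 12.9, 2.28 and 40.3 in NMRI glands). That comparison takes no test, and with 1 gland of each group per number a block leaves its mean differences as they are.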
